A study of Homo sapiens with 8 samples.

Results

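Vandetanib is an oral inhibitor of several receptor tyrosine kinases and is given for advanced medullary thyroid carcinoma. The expression of 10 genes was examined here, namely the receptors KDR, FLT1, FLT4, EGFR, FGFR1, KIT and PDGFRB and the ligands VEGFA, VEGFB and VEGFC. Probes were taken by name, as every non-control probe of the array whose deposited gene name is one of these 10. They made up 10 of the 36337 gene names and 19 of the 50599 probes, and 6 of the 10 genes had more than 1 probe. RET, another known target of the drug, is not among them.

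Receptor tyrosine kinases bind a growth factor outside the cell, pair up and phosphorylate each other, and the phosphorylated tails recruit adaptors that start the MAP kinase, PI3 kinase and phospholipase C pathways. The VEGF ligands act on KDR, FLT1 and FLT4, which are best known from blood and lymph vessels and which vandetanib inhibits together with EGFR. In medullary thyroid carcinoma, a tumor of the calcitonin-producing C cells, these receptors have been studied both in the tumor cells and in the vessels around them.

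The data are 8 Agilent 1-colour expression arrays in 4 groups of 2, from cell lines that were transfected for 48 h and were not given vandetanib. Nthy-ori 3-1, an immortalized line of non-tumoral thyroid follicular cells, received either a synthetic pre-miR-375 at 5 nM, which mimics the miRNA, or a control. TT, a line from a human medullary thyroid carcinoma, received either antagomiR-375 at 20 nM, which inhibits the miRNA, or a control. These concentrations are those of the labels, and the methods of the study give higher ones. All cells shared Lipofectamine RNAiMAX, fetal calf serum and the harvest time, and the labels name both controls CTL only. Each line is 1 culture line standing for its cell type, and the labels do not say whether replicates came from separate cultures, although the methods of the study call its replicates biological. The titles number the TT replicates 1 and 2, whereas the descriptions number the second of them 3 and add a letter to the first, and the titles were used. The 2 lines differed in medium, slide and recorded dose, which cannot be told apart from the line. The dose recorded for the controls was 5 nM in Nthy-ori 3-1 and 20 nM in TT. The methods of the study name separate controls for pre-miRs and antagomiRs, but only pre-miR-CTL for the arrays. The sources thus do not settle whether the controls of both lines were the same reagent. RNA integrity was 8 on both TT control arrays and 9 on the other 6.

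The transfected mature miRNA, miR-375-3p, is shown because both treatments act on it. Capitals mark its seed, bases 2 to 8. RefSeq places it in GRCh38.p14 at chr2:219001648-219001669 on the minus strand. The array has 0 probes named MIR375, so the level of the miRNA itself was not checked by these arrays.
miR-375-3p: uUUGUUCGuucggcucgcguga

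Between 51.6% and 61.1% of the probes of an array were marked as well above background by the scanner software, and their lowest log2 signal was 3.44 to 4.52 after normalization. All levels below are log2 processed signals, quantile normalized over the 8 arrays. A level is compared between arrays only, never between genes, since probes differ in brightness. Of the 10 genes, 6 were well above background on all 8 arrays, 3 only in 1 of the 2 lines, and FLT1 on none. The labelled cell types were checked with marker genes. The 4 C cell markers reported, calcitonin (CALCA) among them, were all higher in TT controls, with a summed log2 level of 18.86 to 19.02 against 4.60 to 5.09 in Nthy-ori 3-1 controls. Of the follicular markers, PAX8 and FOXE1 were well above background in Nthy-ori 3-1, whereas NKX2-1 was so only in TT (12.35 and 12.21 on the controls), thyroglobulin (TG) was brighter in TT (9.13 and 9.13 against 4.72 and 5.02), and the thyrotropin receptor (TSHR) was above background on no array.

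**Figure D1:**
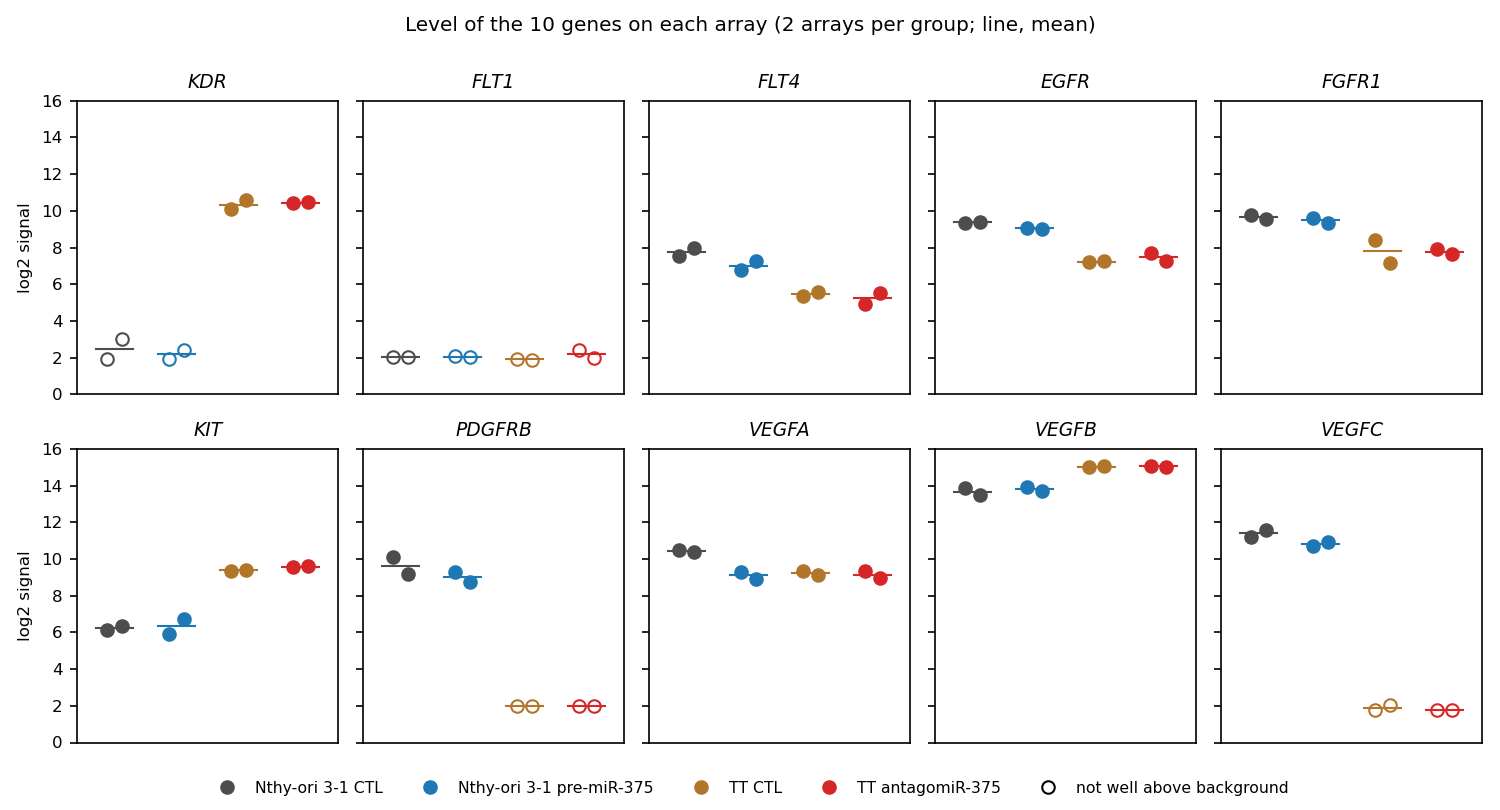
Log2 signal (vertical axis) of the 10 genes on each of the 8 arrays, 1 panel per gene and 2 points per group, with a line at the group mean. Open points mark groups in which the probe was not well above background. KDR is filled only in TT, PDGFRB and VEGFC only in Nthy-ori 3-1, and FLT1 in no group.

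The control arrays of the 2 lines were compared first, to see which receptors and ligands each line carries. In this comparison 15272 of 50582 probes (30.2%) were called at a limma adjusted p of at most 0.05, 14.9% higher and 15.3% lower in TT. Of the 10 genes, 9 were called, 3 of them higher in TT (KDR, KIT and VEGFB) and 6 lower (FLT4, EGFR, FGFR1, PDGFRB, VEGFA and VEGFC). Among probes well above background on both control arrays of at least 1 line the share called was 48.7%, and FLT1 was the 1 gene of the 10 without such a probe. The median difference of the 10 genes was -1.54 against -0.05 over all probes tested. For all 10 genes, FLT1 included, the 2 groups did not overlap, which was also the case for 65.4% of all probes.

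KDR is the main signalling receptor for VEGFA. Its probe read 10.09 and 10.59 in TT controls, against 1.90 and 3.0 in Nthy-ori 3-1 controls, where it was not well above background. Both TT arrays were thus far above both Nthy-ori 3-1 arrays. Against the lowest signal well above background on the Nthy-ori 3-1 arrays, KDR was at least 63.3-fold higher in TT (limma adjusted p = 0.000103). Such bounds set the mean of the bright group against the mean, over the arrays of the dim group, of the lowest signal well above background. They depend on the background correction: with normexp, whose offset of 50 compresses dim signals, the difference was 4.06 on the log2 scale for KDR, and that of PDGFRB and VEGFC, described below, was -3.70 and -5.50.

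FLT1, a high-affinity VEGF receptor with weak kinase activity, gave 1.88 to 2.05 on the 4 control arrays with its brighter probe and 1.66 to 1.84 with the other, which represents the transcript of a secreted form. Neither probe was well above background on any of the 8 arrays, so no difference is read from them. FLT4, the receptor for VEGFC, read 7.54 and 7.97 in Nthy-ori 3-1 controls and 5.34 and 5.55 in TT controls. Every control array was above background and the lines were clearly apart. FLT4 was 4.95-fold lower in TT (log2 difference -2.31 ± 0.259 SE, limma adjusted p = 0.00187), and the difference was smaller with normexp (-1.39) and with the median signal (-1.54), called in both. A second FLT4 probe was well above background on 1 array only, at 3.88 and 4.63 in Nthy-ori 3-1 controls and 1.66 and 2.09 in TT controls. It was called (limma adjusted p = 0.0459), but not without the slide block (0.0524), and no fold is given.

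EGFR, the receptor for EGF and related ligands, had 3 probes that were above background on all 8 arrays. Its brightest probe, for the full-length transcript, gave 9.35 and 9.39 in Nthy-ori 3-1 and 7.19 and 7.28 in TT controls. The replicates lay close together and the lines apart, with EGFR 4.38-fold lower in TT (log2 difference -2.13 ± 0.209 SE, limma adjusted p = 0.00115). The other probes represent short transcripts of the gene and did not follow it. One read 6.35 and 6.43 in Nthy-ori 3-1 against 6.74 and 6.90 in TT (difference 0.43 ± 0.152 SE, limma adjusted p = 0.0979). The other read 6.09 and 6.47 against 5.44 and 6.45 and its groups overlapped (difference -0.34 ± 0.490 SE, limma adjusted p = 0.703). No test set the EGFR probes against each other.

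FGFR1, a receptor for fibroblast growth factors, read 9.79 and 9.56 in Nthy-ori 3-1 controls. The TT controls read 8.39 and 7.18, a wider spread than that of any other leading probe of the 10 genes on these 2 arrays. FGFR1 was 3.71-fold lower in TT (log2 difference -1.89 ± 0.410 SE, limma adjusted p = 0.0205). This call was lost without Nthy-ori 3-1 control replicate 1 (difference -1.83, limma adjusted p = 0.0751), without replicate 2 of that group (-1.96, 0.0642) and in a fit of the 4 control arrays alone (-1.89, 0.0863). A second FGFR1 probe read 8.74 and 8.22 against 5.48 and 6.74 (difference -2.37 ± 0.553 SE, limma adjusted p = 0.0265, -1.59 with normexp), and the remaining probe was above background on no array.

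KIT, the receptor for stem cell factor, was higher in TT. Its brightest probe, printed in 10 spots on each array, read 9.37 and 9.42 in TT controls and 6.13 and 6.37 in Nthy-ori 3-1 controls. This was an 8.85-fold difference (log2 3.15 ± 0.276 SE, limma adjusted p = 0.00076), and the difference was 2.38 with normexp and 2.45 with the median signal. The other KIT probes ran the same way, with 7.22 and 6.80 in TT against 4.59 and 3.69 in Nthy-ori 3-1 for one (limma adjusted p = 0.00852). The last read 4.61 and 3.71 in TT and was not well above background in Nthy-ori 3-1 (1.74 and 2.05), too dim in TT for a bound on the fold. Stem cell factor itself (KITLG) read 8.45 and 8.40 in TT and 6.80 and 7.93 in Nthy-ori 3-1 controls and was not called (limma adjusted p = 0.122). Of 4 mast cell markers, a cell type known for KIT, 0 were called by limma in either direction, also at an unadjusted p under 0.05. By sign alone 4 were higher and 0 lower in TT, with a median difference of 0.42. Well above background on both control arrays were 2 of them in TT and 0 in Nthy-ori 3-1. Their summed log2 level was 5.91 to 6.37 in Nthy-ori 3-1 and 6.49 to 6.61 in TT controls. The part of these markers in the KIT result was not tested.

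PDGFRB, the receptor for PDGF-BB known from pericytes and fibroblasts, read 10.09 and 9.17 in Nthy-ori 3-1 controls. In TT controls it read 2.01 and 1.97 and was not well above background. It was at least 65.3-fold lower in TT (limma adjusted p = 4.94e-05). Its relative PDGFRA ran the other way, with 6.40 and 6.35 in TT against 1.90 and 1.84 in Nthy-ori 3-1, where it was not above background, so that it was at least 4.04-fold higher in TT (limma adjusted p = 1.01e-05; log2 difference 1.18 with normexp). Of 8 fibroblast and pericyte markers, 4 were called lower in TT and 0 higher, beside 15.3% and 14.9% of all probes. Of the 4, 3 were well above background on both control arrays of at least 1 line. The summed log2 level was 13.46 to 14.28 in Nthy-ori 3-1 and 8.73 to 8.97 in TT controls. The sum was carried by COL1A1 (14.21 and 13.39 in Nthy-ori 3-1), while COL3A1 was above background on no array and COL1A2 on 1. Each array carries bulk RNA of a cultured cell line, not of tissue. In bulk RNA a smaller share of cells with a marker and less RNA per cell cannot be told apart. The part of these markers in the PDGFRB result was not tested.

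Among the ligands, VEGFA, the main inducer of vessel growth, read 10.49 and 10.37 in Nthy-ori 3-1 and 9.36 and 9.13 in TT controls with its brighter probe. It was 2.28-fold lower in TT (log2 difference -1.19 ± 0.192 SE, limma adjusted p = 0.00703). A second probe gave 7.59 and 8.45 against 6.06 and 5.90 (difference -2.04 ± 0.349 SE, limma adjusted p = 0.00873, -1.32 with normexp). Of VEGFA, VEGFB and VEGFC, only VEGFB, which binds FLT1, was higher in TT, at 14.99 and 15.04 against 13.84 and 13.48. That was a 2.56-fold difference (log2 1.36 ± 0.159 SE, limma adjusted p = 0.00218). VEGFC, the ligand of FLT4 known for lymphatic growth, read 11.22 and 11.59 in Nthy-ori 3-1 controls and 1.78 and 2.03 in TT, where it was not well above background. It was at least 223-fold lower in TT (limma adjusted p = 4.79e-06). VEGFC and its receptor FLT4 were thus both lower in TT, while KDR was higher and VEGFA lower.

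**Figure D2:**
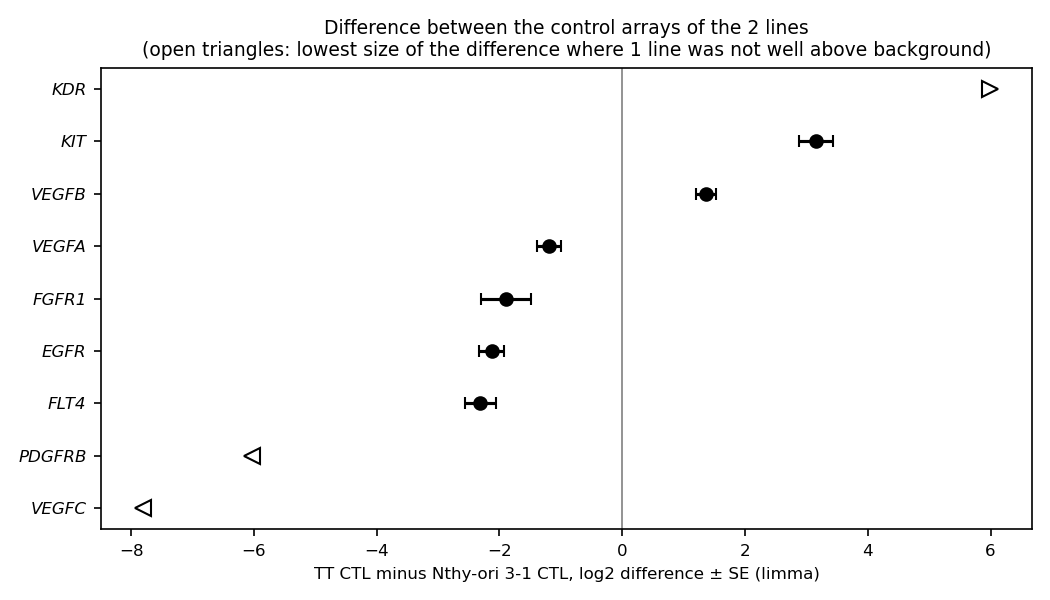
Log2 difference of the leading probe between TT and Nthy-ori 3-1 controls (horizontal axis), for the 9 genes above background in at least 1 line. Filled points carry the standard error of the limma fit, and open triangles stand at the log2 of the bound on the fold for KDR, PDGFRB and VEGFC and point away from 0. KDR, KIT and VEGFB lie to the right of 0 and the other 6 genes to the left.

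The promoters of KDR, PDGFRB and VEGFC are shown because these 3 genes were above background in 1 line only. RefSeq promoters in GRCh38.p14 were found for 7 of the 10 genes, and the 250 bases before the start were read, 5′ to 3′ along the gene. Capitals mark the GC box letters GGGCGG on either strand, the core of Sp1 sites. KDR has 2 matches at chr4:55125596-55125845, PDGFRB 1 at chr5:150155846-150156095 and VEGFC 2 at chr4:176792923-176793172, all on the minus strand.
KDR: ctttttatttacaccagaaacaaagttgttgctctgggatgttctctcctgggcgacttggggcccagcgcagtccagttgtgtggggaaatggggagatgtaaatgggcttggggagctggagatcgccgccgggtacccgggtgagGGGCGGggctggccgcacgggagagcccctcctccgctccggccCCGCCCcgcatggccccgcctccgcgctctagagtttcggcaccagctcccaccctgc
PDGFRB: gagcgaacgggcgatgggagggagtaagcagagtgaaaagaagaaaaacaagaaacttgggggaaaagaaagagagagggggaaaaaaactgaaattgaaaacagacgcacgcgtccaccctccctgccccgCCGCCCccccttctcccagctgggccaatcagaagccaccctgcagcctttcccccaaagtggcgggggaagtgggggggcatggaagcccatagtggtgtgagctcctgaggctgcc
VEGFC: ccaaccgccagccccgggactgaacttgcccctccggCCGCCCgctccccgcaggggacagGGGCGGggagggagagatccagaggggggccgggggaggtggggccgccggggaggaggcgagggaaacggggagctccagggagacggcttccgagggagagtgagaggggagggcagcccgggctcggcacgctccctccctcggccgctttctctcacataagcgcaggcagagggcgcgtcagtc

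Of 35116 RefSeq promoters of this length, 42.6% hold the GC box letters. The TATA box letters TATAAA, searched on both strands and held by 10.7%, were in none of the 3. The hypoxia response letters ACGTG (18.5%) were in none of them, and GCGTG (32.2%) occurred once each in PDGFRB and VEGFC. The GC content was 65.2% for KDR, 58.4% for PDGFRB and 74% for VEGFC, against a median of 58% over all promoters. The GC box letters also occurred in the other member promoters found, with 3 matches in FLT1, 2 in EGFR, 1 in KIT and 6 in VEGFB. They were thus not confined to genes above background in a single line.

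**Figure D3:**
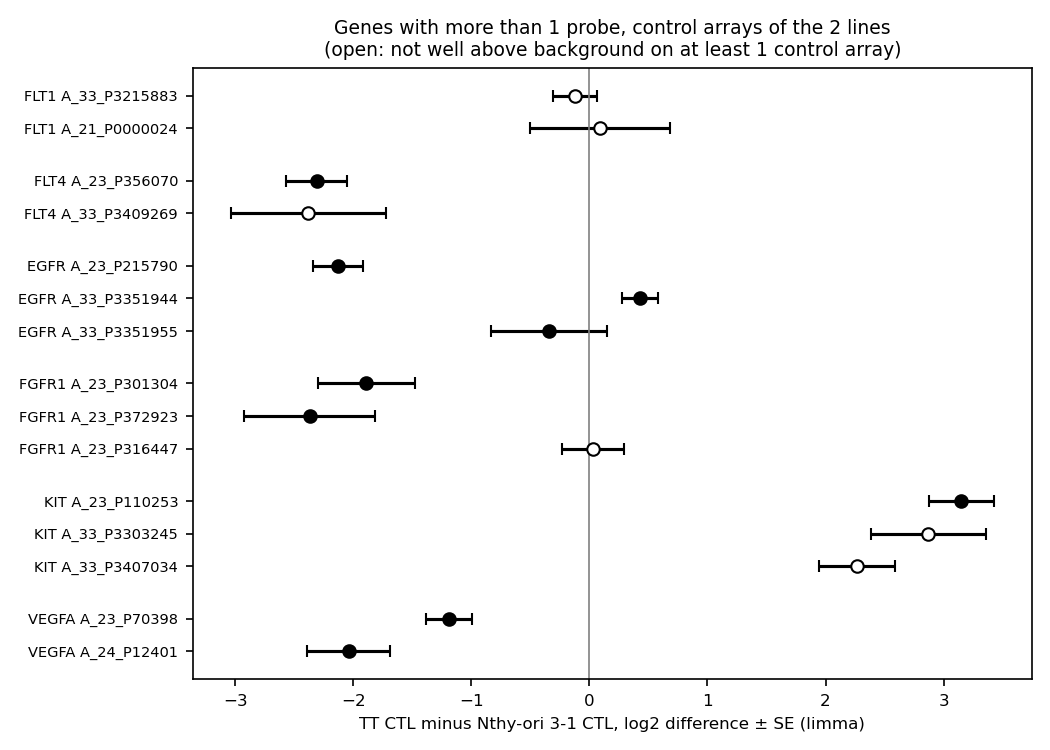
Log2 difference between TT and Nthy-ori 3-1 controls with its standard error, for the 15 probes of the 6 genes that have more than 1 probe. Open points were not well above background on at least 1 control array, and their size is not read as a fold. The EGFR probe of the full-length transcript lies at -2.13, while the probes of its short transcripts lie at 0.43 and -0.34.

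The other genes of these pathways were taken as 68 genes in 8 lists. Of these, 12 were called higher and 29 lower in TT controls, beside 14.9% and 15.3% of all probes, and over the 12 alternatives 10 to 14 were called higher and 22 to 29 lower. In the FGF list each of the 6 genes was called lower in TT, although FGFR4 (-0.82) was not called with the 75th percentile (-0.72, limma adjusted p = 0.103). The decoy receptor FGFRL1 was at least 126-fold lower (10.27 and 10.89 in Nthy-ori 3-1, 2.87 and 1.92 and not well above background in TT, limma adjusted p = 0.000164). FGFR3 was at least 44.6-fold lower, the ligand FGF2 at least 15.1-fold lower, and FGFR2, above background on 1 of the 2 TT control arrays, read 4.07 and 4.82 there against 9.32 and 8.70 (limma adjusted p = 0.00014, 0.000278 and 0.00119). FGFR1 shared this direction with the list. With normexp the log2 difference was -4.46 for FGFRL1, -3.14 for FGFR3, -2.76 for FGFR2 and -2.08 for FGF2, each still called, and those of the 3 genes with a bound were smaller than the bound.

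In the VEGF list, FIGF (VEGFD), a ligand of FLT4 and KDR, was at least 19.6-fold higher in TT, at 8.64 and 8.66 against 2.39 and 1.98 (limma adjusted p = 2.55e-05). The other 3 genes of that list, PGF, NRP1 and NRP2, were called lower. Of 10 EGF receptors and ligands, 1 was called higher and 2 lower, and the EGFR ligand amphiregulin (AREG) was at least 10.2-fold lower in TT, at 1.85 and 1.79 against 6.73 and 7.16 (limma adjusted p = 6.45e-05). Of 9 other kinases that vandetanib is known to bind, 2 were called higher and 4 lower, 1 of the latter (PTK6) above background on no array, with EPHA2, an ephrin receptor, at 3.92 and 4.95 in TT against 8.07 and 9.53 (limma adjusted p = 0.00905).

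Of 7 genes that turn receptors down, 2 were called higher and 3 lower. CBLC, a ubiquitin ligase for activated receptors, was at least 38.8-fold higher in TT, at 9.73 and 9.55 against 1.70 and 1.73 (limma adjusted p = 3.68e-06). Of 10 adaptors, 3 were called each way, and the docking protein GAB2 read 11.86 and 12.24 in TT against 6.89 and 6.82 (difference 5.20, limma adjusted p = 0.000342, 4.56 with normexp). Of 12 hypoxia factors and targets, 2 were called higher and 6 lower. The prolyl hydroxylase EGLN3 was at least 3.61-fold higher in TT, and adrenomedullin (ADM), a vessel-dilating peptide, differed by -3.73 (limma adjusted p = 0.000173 and 4.02e-05). With normexp the bounded differences of these lists were also smaller, at 2.91 for FIGF, -1.60 for AREG, 4.07 for CBLC and 1.08 for EGLN3 on the log2 scale, and all 4 genes were called. Of 9 endothelial markers, which would go with KDR and FLT1 in tissue, 1 was called higher and 2 lower, and by sign alone 5 were higher and 4 lower. Their summed log2 level was 8.16 to 8.32 in Nthy-ori 3-1 and 8.02 to 8.12 in TT controls, and TIE1 was above background on no array.

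The second question was whether more miR-375 goes with a change of these genes in Nthy-ori 3-1. Arrays of equal replicate number shared a slide and were compared as pairs. With limma, 0 of 50594 probes (0%) passed an adjusted p of at most 0.05, the smallest being 0.318, while 7257 (14.3%) had an unadjusted p under 0.05, 7.08% higher and 7.26% lower. None of the 10 genes passed, and 3 were lower at an unadjusted p under 0.05, namely VEGFA, FLT4 and VEGFC. The level was lower in both pairs for 6 of the 10 genes (FLT4, EGFR, FGFR1, PDGFRB, VEGFA and VEGFC), as it was for 27.9% of all probes and 33.9% of those above background on all 4 arrays. Their median difference was -0.30, against 0 over all probes tested, with KDR and FLT1, which were at background in this line, among the 10.

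VEGFA had the largest difference of the 10 genes. Its brighter probe read 9.30 and 8.93 with pre-miR-375 against 10.49 and 10.37 in the controls. Both treated arrays were below both control arrays. The level was 2.49-fold lower with pre-miR-375 (log2 difference -1.32 ± 0.118 SE, pairs -1.20 and -1.44, unadjusted p = 0.00801, limma adjusted p = 0.318). The second probe read 6.69 and 7.43 against 7.59 and 8.45 (difference -0.96, pairs -0.89 and -1.02, limma adjusted p = 0.318). The brighter probe was called when probes not above background were left out (limma adjusted p = 0.045, beside 3.8% of 26318 probes called), with normexp background correction (0.0289), with the median spot signal (0.0442) and with the deposited log2 values (0.0432). The second probe was called under none of these 4 (0.0513 to 0.0769). Over the 12 alternatives the difference of the brighter probe stayed between -1.44 and -1.19 and its adjusted p between 0.0289 and 0.583. VEGFA was the 1 gene of the 10 past the fold and expression thresholds of the study's methods, an average of at least 6 and a log2 change of at most -1, which 1.36% of probes passed without regard to p. Those methods also asked for an adjusted p of at most 0.05 in this line, which VEGFA did not reach in the main fit (limma adjusted p = 0.318).

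The sequence of the brighter VEGFA probe is given because this difference was read from it. It spans a splice junction between coding exons, with its ends at chr6:43746223-43746634 of hg19 on the plus strand, 412 bases apart in the genome for a probe of 60 bases.
VEGFA probe: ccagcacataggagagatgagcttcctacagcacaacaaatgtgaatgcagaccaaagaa

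FLT4 read 6.80 and 7.24 with pre-miR-375 against 7.54 and 7.97 in the controls. Both treated arrays were lower, and the pairs differed by -0.74 and -0.73. The level was 1.66-fold lower (log2 difference -0.73 ± 0.0798 SE, unadjusted p = 0.0118, limma adjusted p = 0.318). VEGFC, the ligand of FLT4, read 10.72 and 10.95 against 11.22 and 11.59. It was 1.49-fold lower (difference -0.57 ± 0.0943 SE, pairs -0.50 and -0.64, unadjusted p = 0.0263, limma adjusted p = 0.318). Ligand and receptor thus had the same sign in both pairs, and neither passed the adjusted test under any of the 12 alternatives (lowest 0.0616 for FLT4 and 0.0673 for VEGFC).

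PDGFRB read 9.31 and 8.76 with pre-miR-375 against 10.09 and 9.17, and the groups overlapped although both pairs were lower (difference -0.59 ± 0.155 SE, unadjusted p = 0.0627). The summed log2 level of the 8 fibroblast and pericyte markers was 14.73 to 14.88 with pre-miR-375 against 13.46 to 14.28, with 1 marker higher and 1 lower at an unadjusted p under 0.05 and 0 called, and its part in the PDGFRB values was not tested. EGFR read 9.07 and 9.01 against 9.35 and 9.39, with both treated arrays lower (-0.33 ± 0.0855 SE, unadjusted p = 0.0611), while its short-transcript probes differed by 0.09 and 0.05. FGFR1 read 9.60 and 9.36 against 9.79 and 9.56 (-0.19 ± 0.0800 SE, unadjusted p = 0.139), and its second probe moved in opposite directions in the 2 pairs. None of these was distinguishable from the spread after adjustment.

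KIT read 5.92 and 6.73 with pre-miR-375 against 6.13 and 6.37, so that the pairs had opposite signs (0.08 ± 0.216 SE, unadjusted p = 0.744). VEGFB was higher in both pairs, at 13.94 and 13.69 against 13.84 and 13.48, by 0.15 ± 0.0906 SE (unadjusted p = 0.23), and 31.7% of all probes were higher in both pairs. KDR stayed not well above background, at 1.93 and 2.44 with pre-miR-375, and so did FLT1. The groups did not overlap for 4 of the 10 genes, all lower with pre-miR-375 (FLT4, EGFR, VEGFA and VEGFC), which held for 14.9% of all probes in that direction.

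Of the 68 pathway genes, 5 were higher and 17 lower at an unadjusted p under 0.05, beside 7.08% and 7.26% of all probes, and 0 were called. Hypoxia factors and targets, a list to which VEGFA is usually counted, had 7 of 12 genes lower and 1 higher at that level, with a median difference of -0.67. By sign alone 9 of the 12 were lower and 3 higher. The carbonic anhydrase CA9 (-1.45), ADM (-1.39), the glucose transporter SLC2A1 (-0.98), the mitophagy receptor BNIP3 (-0.95), NDRG1 (-0.86) and the hypoxia factor subunit HIF1A (-0.73) were each lower in both pairs. The size for CA9 depended on the background correction. In the test of the miR-375 effect between the lines, described below, it was -1.80 with dim probes left out and -0.71 with normexp. With dim probes left out, 3 of 11 were called lower (CA9, ADM and SLC2A1, limma adjusted p = 0.0443, 0.0443 and 0.0497), beside 2.48% of probes. The number called lower was 5 with normexp, 1 with the median signal, 1 with the deposited values and 0 under the other 8 alternatives. EGLN3, itself known as induced by hypoxia, read 3.49 and 3.05 against 1.95 and 1.92, not above background in either group.

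**Figure D4:**
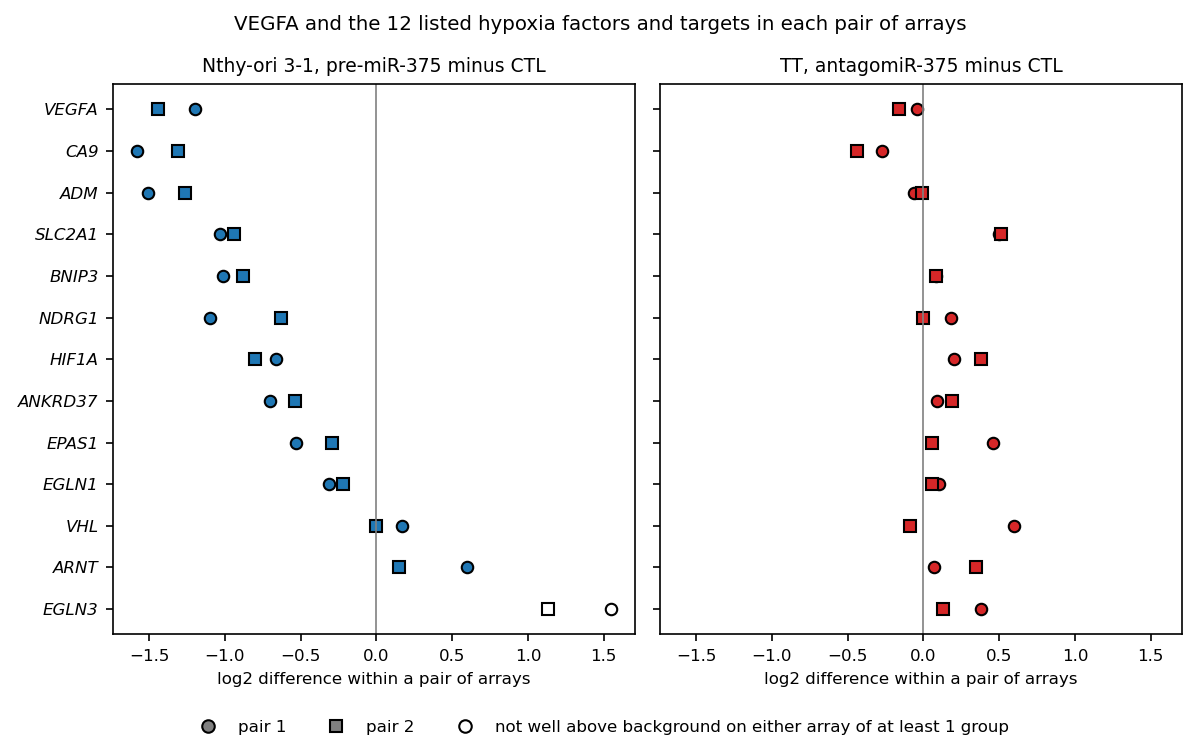
Log2 difference within each pair of arrays (horizontal axis) for VEGFA and the 12 listed hypoxia factors and targets, in Nthy-ori 3-1 with pre-miR-375 (left) and TT with antagomiR-375 (right). Open points were not well above background in at least 1 group. In the left panel VEGFA lies at -1.20 and -1.44, while in the right panel it lies at -0.04 and -0.16.

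Other pathway genes with large differences were the ligand PDGFC (-1.29), the EGFR inhibitor ERRFI1 (-1.12) and FGF1 (-1.08), all lower with pre-miR-375, and placental growth factor (PGF), a ligand of FLT1, which was higher (9.84 and 9.35 against 8.47 and 8.34, difference 1.19). The ubiquitin ligase CBLB differed by 0.80 and the kinase FYN by -0.75. The unadjusted p of these 6 genes ranged from 0.00429 to 0.028 and none was called, limma adjusted p = 0.318 to 0.322. PDGFC and ERRFI1 were called with dim probes left out (limma adjusted p = 0.0436 and 0.0465).

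Of the 4 C cell markers, 0 were called on the same arrays and 1 (SYP) had an unadjusted p under 0.05. Synaptophysin (SYP) read 5.49 and 6.15 with pre-miR-375 against 1.91 and 2.11, CHGA 4.91 and 5.13 against 3.46 and 2.09, and CALCA 8.12 and 4.51 against 3.91 and 3.57, with limma adjusted p = 0.318, 0.363 and 0.511. With dim probes left out SYP was called (0.0389). The summed log2 level of the 4 markers was 7.07 to 8.48 on the pre-miR-375 arrays, 4.60 to 5.09 on their controls and 18.86 to 19.02 in TT controls. CEACAM5, also bright in TT, was not above background on any Nthy-ori 3-1 array, nor were KDR, FIGF and CBLC. The part of this in the results above was not tested.

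**Figure D5:**
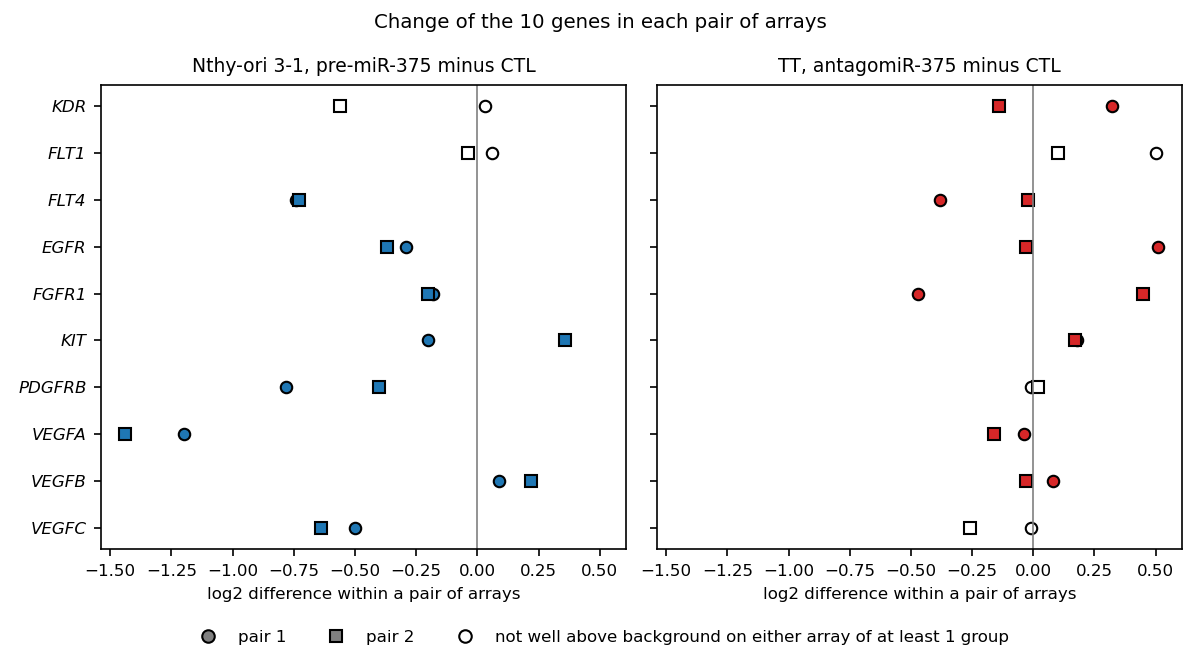
Log2 difference within each pair of arrays (horizontal axis) for the 10 genes, in Nthy-ori 3-1 with pre-miR-375 (left) and TT with antagomiR-375 (right). Open points were not well above background in at least 1 group. On the left FLT4, EGFR, FGFR1, PDGFRB, VEGFA and VEGFC lie below 0 in both pairs, and on the right all filled points lie between -0.47 and 0.51.

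The next question was whether less active miR-375 goes with a change in TT. With limma, 0 of 50587 probes (0%) were called, the smallest adjusted p being 0.512, and 4920 (9.73%) had an unadjusted p under 0.05. Of the 10 genes, 0 reached even an unadjusted p under 0.05, and the differences of the 7 above background in TT ran from -0.20 to 0.24. Among these 7, both pairs were higher for KIT and lower for FLT4 and VEGFA, beside 31.4% and 30.4% of all probes. The signs of FLT1 and VEGFC, also the same in both pairs, were read at background. None of the 10 passed the thresholds of the study's methods for this line, an average above 6 and a log2 change of at least 0.6, which 1.18% of probes passed. The TT controls differ from the antagomiR arrays in RNA integrity as well as in treatment, which cannot be told apart.

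KDR read 10.42 and 10.46 with antagomiR-375 against 10.09 and 10.59 in the controls, and the groups overlapped (0.09 ± 0.177 SE, limma adjusted p = 0.863). KIT was higher in both pairs by a small amount, at 9.55 and 9.59 against 9.37 and 9.42 (0.18 ± 0.0826 SE, unadjusted p = 0.159, limma adjusted p = 0.611). Its groups did not overlap, as for 42.3% of all probes. This probe is the mean of 10 spots, and its other probes differed by 0 and -0.19. VEGFA read 9.32 and 8.97 against 9.36 and 9.13 (-0.10 ± 0.0927 SE, limma adjusted p = 0.721), and its second probe ran the other way (0.28). VEGFB read 15.07 and 15.01 against 14.99 and 15.04, a difference of 0.03 ± 0.0903 SE.

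EGFR read 7.71 and 7.25 with antagomiR-375 against 7.19 and 7.28 (0.24 ± 0.204 SE), FGFR1 7.92 and 7.62 against 8.39 and 7.18 (-0.01 ± 0.324 SE) and FLT4 4.95 and 5.53 against 5.34 and 5.55 (-0.20 ± 0.148 SE). For each of these 3 genes the groups overlapped. The short-transcript probes of EGFR were 0.31 and 0.57 lower on the log2 scale, neither at an unadjusted p under 0.05. PDGFRB, VEGFC and FLT1 remained not well above background with antagomiR-375.

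Of the 68 pathway genes, 6 were higher and 3 lower at an unadjusted p under 0.05, beside 4.91% and 4.82% of all probes. Of these, ERBB4 and PDGFD (higher) and PTK6 (lower), named after their values were seen, were not above background on both arrays of either group. Of the 12 hypoxia factors and targets 10 were higher, with a median difference of 0.18 against 0 over all probes tested, 1 at an unadjusted p under 0.05 (SLC2A1) and 0 called. Among the genes above background on all 4 arrays EPHA2 had the largest difference (0.85, unadjusted p = 0.177). FGFR3 read 4.30 and 3.82 with antagomiR-375 and 2.95 and 3.20 in the controls, where it was not well above background, so no difference is given. The receptor ERBB2, a partner of EGFR, was lower (-0.59) and the EGFR ligand HBEGF higher (0.55), with unadjusted p = 0.0161 and 0.0285. PDGFC (0.53) and SLC2A1 (0.51) were higher with antagomiR-375 and lower with pre-miR-375 in the other line, and FLT3LG was lower (-0.61). Smaller differences were those of PGF (0.47), CA9 (-0.36), LRIG1 (0.36), FIGF (0.32) and PLCG1 (0.32), and 0 of the 68 pathway genes were called by limma.

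Finally, the effects of more miR-375 in the 2 lines were set against each other, as pre-miR-375 minus control in Nthy-ori 3-1 minus the value of control minus antagomiR-375 in TT. With limma 0 of 50582 probes (0%) were called and 7421 (14.7%) had an unadjusted p under 0.05, 7.29% higher and 7.39% lower. VEGFA differed between the lines by -1.41 ± 0.161 SE with its brighter probe (unadjusted p = 0.00246, limma adjusted p = 0.22) and by -0.68 ± 0.201 SE with the second (unadjusted p = 0.0394, limma adjusted p = 0.319). FLT4 differed by -0.93 ± 0.185 SE (unadjusted p = 0.013, limma adjusted p = 0.246), and by -0.61 with normexp (limma adjusted p = 0.0691). The brighter VEGFA probe was called in this test with normexp background correction (-1.25, limma adjusted p = 0.0244) and not under the other 3 alternatives (0.0929 to 0.386). The second VEGFA probe was called under none of the 4 (0.119 to 0.888). For EGFR, FGFR1, KIT and VEGFB the difference between the lines was -0.20 to 0.26, with unadjusted p from 0.266 to 0.738. The remaining 4 genes were not above background in at least 1 line. These comparisons share the control arrays with the comparison of the lines, so their values are given side by side only.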

How the data were processed

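The authors deposited 1 scanner file per array, written by Feature Extraction 10.10.1.1, with a processed intensity (background subtracted and detrended) and mean, median and background intensities of each spot, unscaled between arrays. A table of normalized log2 values, also deposited, served as an alternative. Probe positions are those of hg19 in the files. Here, control and outlier spots were removed, log2 processed intensities were averaged per probe, and all 8 arrays were brought to 1 distribution by quantile normalization (limma 3.58.1, R 4.3.3). Treatment and control were compared within a line by lmFit and eBayes. The replicate number entered as a block, since arrays of equal number shared a slide (correlation of their deviations 0.785 in Nthy-ori 3-1 and 0.329 in TT). The control lines were compared over all 8 arrays with the slide as a random block (correlation 0.494, from every 10th probe). P-values were corrected across all probes (Benjamini-Hochberg) and called at 0.05 or less. The brightest probe stood for a gene, and its symbol was current in RefSeq for all 10. Up to 12 pathway genes per comparison were named, those with the largest change above background and of 1 direction in both pairs, or called in the control lines. Others are named for a count or for their relation to the 10 genes, after their values were seen. Members and lists were chosen with earlier results of these data known. A further marker gene is not reported here. With 2 arrays per group the number of arrays limits the precision. The steps were tested on simulated data, built only from probes well above background on all 8 arrays and with a spread set beforehand. That test thus does not cover probes near background or the spread of these arrays.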

Additional observations from a re-analysis of the deposited data

How the results depend on the processing

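Alternatives were another signal or background correction, the deposited values, another scaling, a filter on dim probes, no block and leaving out replicates. In the comparison of the control lines 8 to 9 of the 10 genes were called in every one of 12 alternatives, and the 9 genes above background kept their direction. The deposited values were not among these 12. The differences of KDR (4.06 to 8.35), PDGFRB (-8.00 to -3.70) and VEGFC (-9.64 to -5.50) were smallest with normexp. With pre-miR-375, 1 gene (VEGFA) rather than 0 was called with normexp (1560 of all probes called), the median signal (517), the deposited values (577) and dim probes left out (999); 0 of all probes were called under the other 8. For the difference between lines 4 alternatives were run, without the median signal and the deposited values. There 1 gene (VEGFA) was called with normexp (1116 probes) and 0 with the others. With antagomiR-375, 0 genes were called throughout, and 10 probes with the median signal. Differences changed sign when 1 pair was left out for KIT with pre-miR-375 (-0.20 to 0.36) and, with antagomiR-375, for KDR (-0.14 to 0.32), EGFR (-0.03 to 0.51), FGFR1 (-0.47 to 0.45) and VEGFB (-0.03 to 0.08). VEGFB also changed sign with the 75th percentile (-0.10 with antagomiR-375, -0.03 between lines). None of these was called, and the cause was not tested. Without the replicate block VEGFA differed by -1.32 (adjusted p = 0.408) with pre-miR-375, and the block changed no call of the 10 genes. With 1 residual degree of freedom per line, limma's prior of 0.994 and 1.13 degrees of freedom limits how small an adjusted p can be. A fit of 1 pair alone was not possible, so fits without a replicate used both lines and assume that the lone pair varies like the others.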
